A study of Mus musculus with 21 samples.

Results

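H2B E113K was set against H2B E76K in C3H/10T1/2, a mesenchymal progenitor line derived from mouse embryos. In each genotype lysine replaced a glutamate of histone H2B, at the position in the name, so both substitutions put a positive charge where H2B has a negative one. The comparison used 6 of the 21 libraries of the series, 3 per genotype, and the 11989 of 24091 listed genes whose TPM averaged 1 or more over these 6. TPM is transcript abundance normalized for length to a fixed sum per library. For reference, the 3 E113Q and 3 E76Q libraries, with glutamine at the same positions, and the 3 libraries with wild-type H2B (WT) are given beside them. The limma test behind the p-values took the spread of each gene from all 21 libraries. These also include the genotypes E71K and E71Q, with lysine or glutamine at another H2B glutamate, whose levels are not given here. The design text calls the replicates independent and biological, but the labels name neither separate cultures nor separate lines per genotype. P-values therefore measure only sample-to-sample spread, possibly technical, and line differences and effects of the substitution cannot be told apart. H2B made from an introduced gene cannot be told from endogenous H2B in these values.

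H2B forms a dimer with H2A, and a pair of such dimers flanks the H3-H4 tetramer in each nucleosome. The glutamate changed in E113K is part of the acidic patch, the negatively charged surface through which many chromatin proteins and remodelling enzymes grip the nucleosome by an arginine anchor. The glutamate changed in E76K lies inside the particle, where H2B touches H4 and the dimer is held on the tetramer. Lysine at the first site alters a docking surface and lysine at the second alters an internal contact.

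Between the genotypes 4060 genes passed limma at an adjusted p of 0.05 (33.9%). Of these, 1563 were higher in E113K (13.0% of the genes tested) and 2497 were lower (20.8%). The median log2 fold change over all genes tested was -0.04. Higher genes made up 38.5% of the calls, but 46.4% after a median-ratio rescaling (2718 higher, 3143 lower) and 51.4% after quantile normalization (3118 higher, 2945 lower). A fit of the 6 libraries alone called 2419 genes higher and 3276 lower. The libraries of the genotypes did not overlap for 3074 genes that were higher (25.6%) and 4135 that were lower (34.5%). Calls with a log2 fold change of at least 1 in size numbered 480 higher (4.0%) and 908 lower (7.57%). Counts of list members below stand against these shares of all genes tested, 13.0% higher and 20.8% lower. All fold changes below are on the log2(TPM + 1) scale as E113K minus E76K with the standard error of the model, and this scale understates the change of genes near 0.

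Across genes, pairs of libraries correlated at 0.966 to 0.968 within E113K, 0.949 to 0.969 within E76K and 0.89 to 0.918 between them, on the log2(TPM + 1) scale. The median SD of a gene was 0.09 log2 units in E113K and 0.14 in E76K, where replicate 3 stood apart from its mates for the cell division genes described below. The TPM share of Mir6236, a single locus annotated as a microRNA, was 2.19% to 2.91% in E113K and 2.48% to 4.14% in E76K. Mesenchymal markers were abundant in both genotypes, with 9 of 10 at a mean of at least 1 TPM and a summed level of 10090 to 10520 TPM in E113K, 10900 to 13330 TPM in E76K and 9380 to 9604 TPM in WT. Nt5e, the marker CD73, was at most 0.0326 TPM in E113K and 0.0345 TPM in E76K. Vim, Pdgfra, Prrx1 and Col1a1 were each at 25.2 TPM or more in all 6 libraries.

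**Figure D1:**
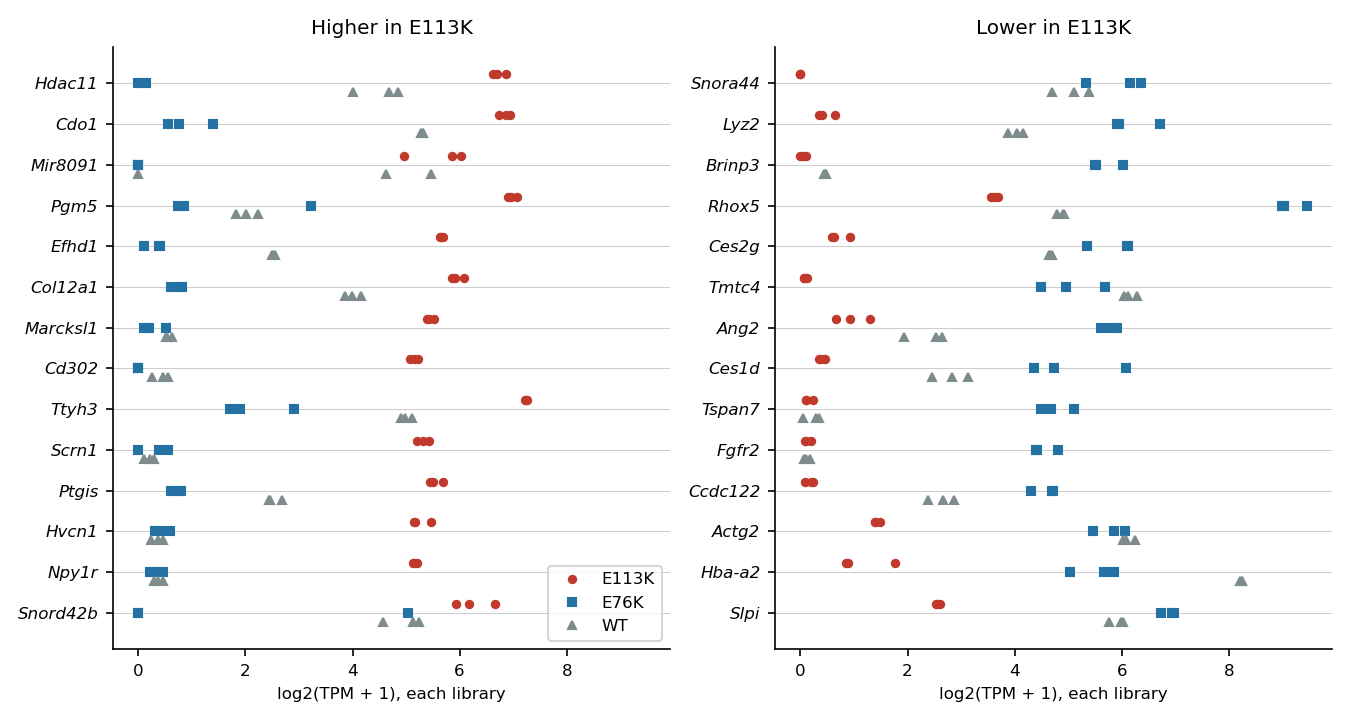
TPM on the log2(TPM + 1) scale in each E113K, E76K and WT library for the 14 genes with the largest rise (left) and the 14 with the largest fall (right) in E113K against E76K. Each symbol is 1 library. The 28 genes were picked only from those whose E113K and E76K libraries do not overlap. The WT libraries lie beside E113K for some, beside E76K for others and between them for the rest.

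The largest rise was that of Hdac11, a histone deacetylase of class IV. Hdac11 (Entrez Gene 232232; chromosome 6, 91156670 to 91174692, GRCm38) had 116, 103 and 97.8 TPM in the E113K libraries, against 0.0435, 0 and 0.103 TPM in the E76K libraries. The difference was 6.66 ± 0.51 log2 units (adjusted p = 1.61e-08), and WT stood between the genotypes at 22.5 ± 6.61 TPM (SD, n = 3). The transcript was thus high in every E113K library and close to 0 in every E76K library. Cdo1, which oxidizes cysteine, had 106, 116 and 121 TPM in E113K libraries, against 0.687, 0.47 and 1.62 TPM in E76K libraries (5.95 ± 0.22, adjusted p = 1.33e-12). Col12a1, a collagen that decorates fibrils, had 56.8, 66.7 and 58.9 TPM in E113K libraries, against 0.767, 0.525 and 0.732 TPM in E76K libraries (5.20 ± 0.19, adjusted p = 1.28e-12). WT again lay between, at 38.5 ± 0.644 TPM for Cdo1 and 15.1 ± 1.74 TPM for Col12a1.

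Marcksl1, Npy1r and Hvcn1 rose and are scarcely expressed in WT cells. Marcksl1, which binds actin and calmodulin, had 41.1, 41.9 and 45.2 TPM in E113K libraries, against 0.0723, 0.149 and 0.426 TPM in E76K libraries and 0.477 ± 0.0626 TPM in WT. Npy1r, a receptor for neuropeptide Y, averaged 34.8 ± 1.05 TPM in E113K, 0.271 ± 0.105 TPM in E76K and 0.293 ± 0.0747 TPM in WT (SD, n = 3 each). Hvcn1, a voltage-gated proton channel, averaged 37.5 ± 5.08 TPM in E113K, 0.362 ± 0.14 TPM in E76K and 0.278 ± 0.0969 TPM in WT. For these 3 genes it was E113K that stood away from both E76K and WT, with fold changes of 5.18 ± 0.33, 4.82 ± 0.35 and 4.82 ± 0.52. High levels were not particular to E113K, since Marcksl1 averaged 21 TPM in E113Q and 16.8 TPM in E76Q. Npy1r averaged 17.2 TPM in E113Q and 0.0632 TPM in E76Q. Efhd1, a calcium-binding mitochondrial protein, rose by 5.36 ± 0.34 and Ptgis, which makes prostacyclin, by 4.82 ± 0.16. Pgm5, a phosphoglucomutase relative found at cell adhesions, rose by 5.37 ± 0.71, with 8.39 TPM in E76K replicate 3 against 0.804 and 0.675 TPM in its mates. Ttyh3, a chloride channel relative, rose by 5.07 ± 0.39 and Scrn1, a secernin, by 5.00 ± 0.21. Cd302, a C-type lectin, was at 34.6 ± 1.85 TPM in E113K and was listed at 0 in all 3 E76K libraries. The short RNAs Mir8091 (listed at 0 in E76K) and Snord42b (listed at 0 in 2 of 3 E76K libraries) were higher too, but counts of RNAs this short are uncertain.

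The largest falls included Lyz2, the lysozyme of macrophages. Lyz2 (Entrez Gene 17105) had 0.32, 0.564 and 0.269 TPM in the E113K libraries, against 59.5, 60.8 and 103.5 TPM in the E76K libraries. Its log2 fold change was -5.73 ± 0.37 (adjusted p = 2.24e-09), and WT held 15.4 ± 1.6 TPM. Of 7 macrophage markers only Lyz2 and Cd14 reached a mean of 1 TPM, Adgre1 and Tyrobp were listed at 0 in all 6 libraries, and Ptprc and Csf1r were at most 0.172 TPM. The summed level of the 7 was 12.1 to 12.3 TPM in E113K, 82.1 to 120.7 TPM in E76K and 31.1 to 31.9 TPM in WT, nearly all of it Lyz2 and Cd14. In bulk RNA fewer cells of a type and less RNA per cell cannot be told apart.

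Brinp3, a secreted protein of the nervous system, and Fgfr2, a receptor for fibroblast growth factors, were high in E76K and near 0 in both E113K and WT. Brinp3 had 0.0687, 0.0363 and 0 TPM in E113K libraries, against 44.1, 45 and 64.2 TPM in E76K libraries and 0.377 ± 0.0164 TPM in WT (-5.63 ± 0.17, adjusted p = 1.14e-13). Fgfr2 had 0.142, 0.0786 and 0.0567 TPM in E113K libraries, against 20.2, 20.5 and 27.2 TPM in E76K libraries and 0.0831 ± 0.0473 TPM in WT (-4.42 ± 0.32, adjusted p = 1.02e-08). Tspan7, a tetraspanin, showed the same order, at 0.108 ± 0.0621 TPM in E113K, 26.5 ± 6.16 TPM in E76K and 0.176 ± 0.122 TPM in WT. Its E113K and E76K libraries did not overlap, which was required of every gene picked as a largest fall. Rhox5, an X-linked homeobox gene, was lower as well, at 11.3 ± 0.565 TPM in E113K, 577 ± 107 TPM in E76K and 28.3 ± 1.42 TPM in WT.

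Actg2, Slpi and Tmtc4 were low in E113K and high in both E76K and WT. Actg2, the actin of visceral smooth muscle, had 1.62, 1.81 and 1.63 TPM in E113K libraries, against 56.8, 65.6 and 43.1 TPM in E76K libraries and 68.4 ± 5.75 TPM in WT (-4.37 ± 0.14, adjusted p = 2.9e-13). Slpi, an inhibitor of leukocyte proteases, had 4.81, 5.09 and 4.85 TPM in E113K libraries, against 125, 122 and 105 TPM in E76K libraries and 59.9 ± 5.78 TPM in WT. Tmtc4, an O-mannosyltransferase of the endoplasmic reticulum, averaged 0.0643 ± 0.0186 TPM in E113K, 34 ± 14.9 TPM in E76K and 70.2 ± 6.36 TPM in WT. Ccdc122 fell by 4.41 ± 0.20 on the log2 scale. Ces2g and Ces1d (carboxylesterases), Ang2 (an angiogenin) and Hba-a2 (alpha globin) fell by 5.14, 4.66, 4.81 and 4.34, but each has close relatives in the genome that can share its reads, which leaves the values uncertain. Snora44, a short nucleolar RNA, was listed at 0 in all E113K libraries and at 63.5 ± 21.5 TPM in E76K.

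A switch-like difference, at least 10 TPM in every library of one genotype and under 0.5 TPM in every library of the other, was found for 41 genes. Of these, 18 were on in E113K and 23 were on in E76K, and these genes were picked on their values, so their levels are a description. WT averaged at least 10 TPM for 4 of the 18 and 6 of the 23, and under 0.5 TPM for 7 and 8 of them. Among genes on in E113K, Xist, the noncoding RNA that coats the inactive X chromosome, had 17, 22.8 and 24.3 TPM in E113K libraries, against 0.0168, 0.00572 and 0.0586 TPM in E76K libraries and a mean of 12.2 TPM in WT. The median over 396 genes of the X chromosome differed by -0.000798 log2 units between E113K and E76K. Among genes on in E76K, Tmem47 averaged 24.6 TPM in WT and Igsf1 0.0149 TPM. The 18 genes on in E113K matched 13 RefSeq promoter windows of 12 genes and the 23 on in E76K matched 26 windows of 19 genes. The median number of CG dinucleotides in the 250 bases upstream of the start was 12 for the genes on in E113K and 4 for the genes on in E76K, against 16 over 11551 windows of all genes tested. The windows below are shown for the genes with large switches in each direction, from RefSeq on GRCm38.p6, with CG dinucleotides in capitals.
Hdac11, on in E113K, chr6:91156565-91156814, plus strand: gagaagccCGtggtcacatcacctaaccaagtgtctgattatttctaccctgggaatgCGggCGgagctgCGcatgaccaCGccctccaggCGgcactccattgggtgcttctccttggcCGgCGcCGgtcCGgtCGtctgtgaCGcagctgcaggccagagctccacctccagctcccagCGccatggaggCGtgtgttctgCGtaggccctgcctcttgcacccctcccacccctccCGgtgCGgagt
Brinp3, on in E76K, chr1:146495379-146495628, plus strand: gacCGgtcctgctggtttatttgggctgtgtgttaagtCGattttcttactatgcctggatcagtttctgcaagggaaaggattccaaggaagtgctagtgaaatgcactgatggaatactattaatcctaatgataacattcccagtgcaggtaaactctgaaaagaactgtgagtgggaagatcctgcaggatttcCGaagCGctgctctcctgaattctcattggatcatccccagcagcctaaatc
Tmtc4, on in E76K, chr14:122983284-122983533, minus strand: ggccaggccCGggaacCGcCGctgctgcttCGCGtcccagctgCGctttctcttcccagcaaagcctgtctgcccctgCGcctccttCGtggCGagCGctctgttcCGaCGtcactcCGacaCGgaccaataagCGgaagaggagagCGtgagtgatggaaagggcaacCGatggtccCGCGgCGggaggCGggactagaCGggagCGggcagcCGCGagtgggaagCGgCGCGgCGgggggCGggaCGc
The Hdac11 window belongs to a RefSeq start inside the annotated span of the gene, so part of it lies within that span, as do the last bases of the Tmtc4 window. The Hdac11 window holds 17 CG dinucleotides, the Brinp3 window 4 and the Tmtc4 window 31, so genes on in E76K included windows both poor and rich in CG. DNA methylation was not measured.

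Cell division transcripts were much lower in E113K. Of 50 G2/M and mitosis genes tested, 49 fell and none rose, where 20.8% of all genes tested fell, and the list median was -1.88. The one not called was Cdc25b, at -0.02 (adjusted p = 0.939). Prc1, which bundles the spindle midzone, had 14.8, 15.1 and 14.8 TPM in E113K libraries, against 120.7, 121 and 53.8 TPM in E76K libraries (-2.55 ± 0.39, adjusted p = 7.45e-05). Plk1, a mitotic kinase, had 11.1, 11.6 and 9.74 TPM in E113K libraries, against 88.9, 90.3 and 34 TPM in E76K libraries (-2.48 ± 0.41, adjusted p = 0.000175). Every E113K library lay below every E76K library for both, though E76K replicate 3 was well under its mates. Pttg1, the securin that holds back sister separation, fell by 2.71 ± 0.51, Hmmr, a spindle-associated receptor, by 2.45 ± 0.41, and Cenpa, the histone H3 of centromeres, by 2.43 ± 0.50. Mki67, the proliferation marker Ki-67, averaged 9.28 ± 0.785 TPM in E113K, 39.5 ± 11.7 TPM in E76K and 40.7 ± 2.84 TPM in WT (-1.94 ± 0.36, adjusted p = 0.000432).

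The summed level of the 50 G2/M and mitosis genes was 753, 776 and 775 TPM in E113K libraries, against 3684, 3731 and 1708 TPM in E76K libraries and 3481, 3304 and 3620 TPM in WT libraries. E76K replicates 1 and 2 were thus just above the WT libraries, replicate 3 lay below them and all E113K libraries lay lowest. Without E76K replicate 3 the list median was -2.25 and 49 genes fell, and without either of its mates the median was -1.72 or -1.71 and 48 fell. Against WT, 6181 genes were called in E113K (51.6%, 31.4% higher and 20.2% lower) and 4008 in E76K (33.4%, 24.6% higher and 8.81% lower). Of the 50 G2/M and mitosis genes, 49 fell in E113K against WT and 3 fell in E76K. These comparisons share the WT libraries, and so do all those against WT below.

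Replication genes followed. Of 45 G1/S and replication genes, 43 fell and none rose, with a median of -1.25, and the exceptions were Rfc1 (-0.20, adjusted p = 0.273) and E2f1 (0.000683, adjusted p = 0.997). Cdt1, which licenses replication origins, had 11.4, 12.3 and 9.54 TPM in E113K libraries, against 51.2, 54 and 26.2 TPM in E76K libraries (-1.83 ± 0.33, adjusted p = 0.000318). Mcm5, a subunit of the replicative helicase, averaged 13.9 ± 1.16 TPM in E113K, 52.3 ± 19.3 TPM in E76K and 82.7 ± 6.48 TPM in WT. The summed level of the list was 992, 1013 and 977 TPM in E113K libraries, against 2458, 2335 and 1595 TPM in E76K libraries. Every E113K library lay below every E76K library. Both E76K and E113K had called falls against WT here, 44 of 45 in E113K and 11 of 45 in E76K. Of all genes 20.2% and 8.81% fell in the same order.

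**Figure D2:**
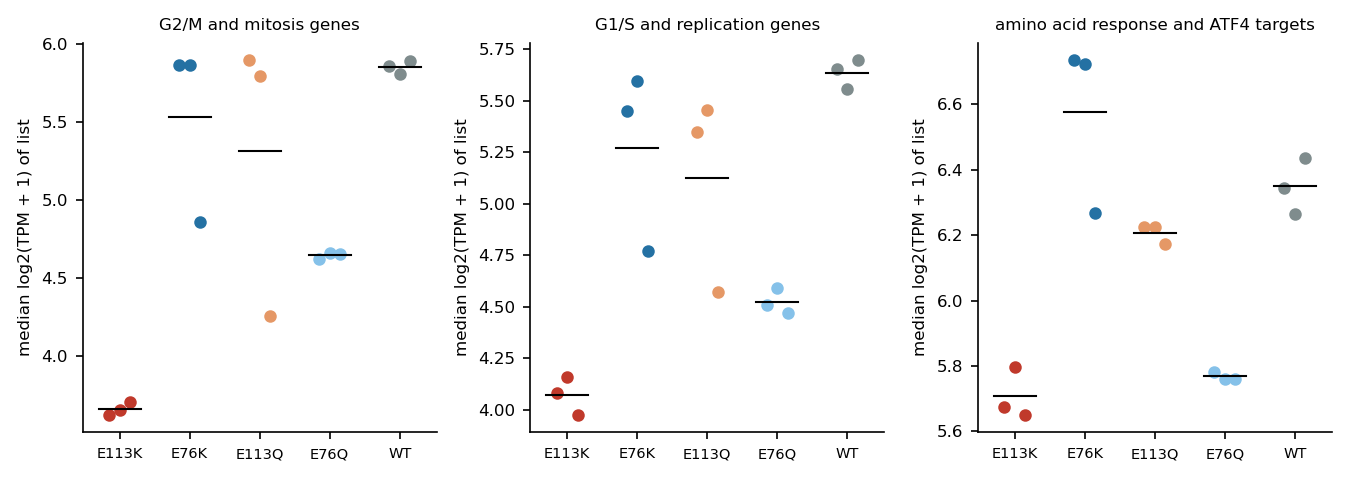
Median log2(TPM + 1) over the tested members of 3 gene lists in each library, with a bar at the group mean. Groups are E113K, E76K, E113Q, E76Q and WT from left to right, each panel has its own vertical scale, and E76K replicate 3 and E113Q replicate 3 lie below their mates for the G2/M and G1/S lists.

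Genes for CDK inhibitors, cyclin D and p53 targets did not rise as a list. Of 27 tested, 13 fell and 1 rose. These counts mix the cell cycle inhibitors with the other members, so they do not describe the inhibitors alone. The riser was Cdkn1b, the inhibitor p27, with 164, 177 and 188 TPM in E113K libraries, against 82.5, 81.6 and 104 TPM in E76K libraries (0.98 ± 0.16, adjusted p = 0.000182). Cdkn1a, the inhibitor p21, fell instead, at 169 ± 1.79 TPM in E113K and 264 ± 6.3 TPM in E76K (-0.64 ± 0.10, adjusted p = 0.000105). Aen, a nuclease induced by p53, fell by 1.21 ± 0.20.

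Promoter sequence of the mitotic list was compared with that of all genes tested. Many mitotic genes are known to carry a CHR element (TTTGAA or TTCGAA) together with CCAAT boxes. In the 250 bases upstream of a RefSeq start, on both strands, CCAAT stood in 35 of 44 windows of 41 G2/M genes (79.5%), against 36.4% of 11551 windows of all genes tested. TTTGAA or TTCGAA stood in 20 (45.5%), against 12.4%, and both stood in 19 (43.2%), against 4.87%. Among 41 windows of G1/S genes the shares were 56.1%, 17.1% and 14.6%. The promoter of Pttg1, which had the largest fall among G2/M genes with a window, held neither motif. The windows of Prc1, of the cytokinesis factor Ect2 (-2.28 ± 0.46), of Cdc20 (-2.20 ± 0.45), the activator of the anaphase-promoting complex, and of the mitotic cyclin Ccnb2 (-2.04 ± 0.48) are shown because both motifs stood in each, with the motifs in capitals (RefSeq, GRCm38.p6).
Prc1, chr7:80294226-80294475, plus strand: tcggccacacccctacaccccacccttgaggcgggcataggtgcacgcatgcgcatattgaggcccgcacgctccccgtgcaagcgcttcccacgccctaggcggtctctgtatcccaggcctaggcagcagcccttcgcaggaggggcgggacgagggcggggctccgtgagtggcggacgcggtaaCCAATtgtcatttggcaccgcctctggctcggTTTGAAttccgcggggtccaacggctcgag
Ect2, chr3:27153879-27154128, minus strand: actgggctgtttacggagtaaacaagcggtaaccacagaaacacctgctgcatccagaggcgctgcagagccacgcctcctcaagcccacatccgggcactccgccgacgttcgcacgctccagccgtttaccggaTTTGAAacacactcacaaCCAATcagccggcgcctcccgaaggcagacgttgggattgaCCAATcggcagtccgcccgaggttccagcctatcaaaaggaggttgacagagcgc
Cdc20, chr4:118437344-118437593, minus strand: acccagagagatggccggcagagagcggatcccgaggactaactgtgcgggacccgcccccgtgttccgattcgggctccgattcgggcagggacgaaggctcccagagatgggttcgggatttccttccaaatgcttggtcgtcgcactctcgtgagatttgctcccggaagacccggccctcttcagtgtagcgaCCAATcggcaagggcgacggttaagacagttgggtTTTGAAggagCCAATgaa
Ccnb2, chr9:70421555-70421804, minus strand: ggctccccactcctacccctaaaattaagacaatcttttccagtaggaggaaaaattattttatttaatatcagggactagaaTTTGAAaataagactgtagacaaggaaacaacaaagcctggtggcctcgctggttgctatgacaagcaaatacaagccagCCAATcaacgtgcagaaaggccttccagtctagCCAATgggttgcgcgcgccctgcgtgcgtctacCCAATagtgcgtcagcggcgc
The Ect2 window lies wholly, and the Prc1 window in part, inside the annotated span of the gene, since other RefSeq starts lie further upstream. A match is a description of these letters, and factor binding was not measured. The shares describe a list of mitotic genes, nearly all of which fell. They do not compare genes that fell with genes that did not.

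Some histone genes were lower. Of 12 replication-independent histone variants, 6 fell and none rose, and 3 fell without E76K replicate 1 or without E76K replicate 2. H2afz, the variant H2A.Z, had 199, 193 and 189.9 TPM in E113K libraries, against 650.5, 651 and 390 TPM in E76K libraries (-1.49 ± 0.24, adjusted p = 0.000131). H1fx, a linker histone variant, fell by 1.70 ± 0.28. Of 39 replication-dependent histone genes, 5 fell, a smaller share than the 20.8% of all genes, and 2 rose, and without E113K replicate 2 or E76K replicate 1 only 3 fell. Among the falls was the H2B gene Hist2h2be, at 35.2 ± 0.858 TPM in E113K, 118 ± 16 TPM in E76K and 22.6 ± 0.691 TPM in WT. Reads of such near-identical copies, and of an introduced H2B, can be divided among genes, so these values are uncertain.

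Genes for proteins that dock on the acidic patch or act on nucleosomes gave 12 falls and 2 rises among 36 tested, and 7 falls without E113K replicate 1, E76K replicate 1 or E76K replicate 2, a share near the 20.8% of all genes. The list median was -0.11. Smarca1, the ISWI remodeller SNF2L, had 0.294, 0.249 and 0.254 TPM in E113K libraries, against 8.54, 8.15 and 13.9 TPM in E76K libraries and 1 ± 0.597 TPM in WT (-3.11 ± 0.31, adjusted p = 5.38e-07). Hmgn5, a nucleosome-binding protein, had 5.2, 4.24 and 5.64 TPM in E113K libraries, against 21.8, 24.6 and 12 TPM in E76K libraries and 26.4 ± 0.875 TPM in WT. Neither gene's libraries overlapped, and Smarca1 was high in E76K while Hmgn5 was low in E113K relative to WT. Brca1 and Bard1, partners in a ubiquitin ligase that reads nucleosomes, fell by 1.67 ± 0.30 and 1.48 ± 0.27. Of 23 histone chaperones 11 fell and 1 rose. Asf1b, Hjurp and Chaf1a, which deliver histones to new or centromeric chromatin, were among the falls.

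**Figure D3:**
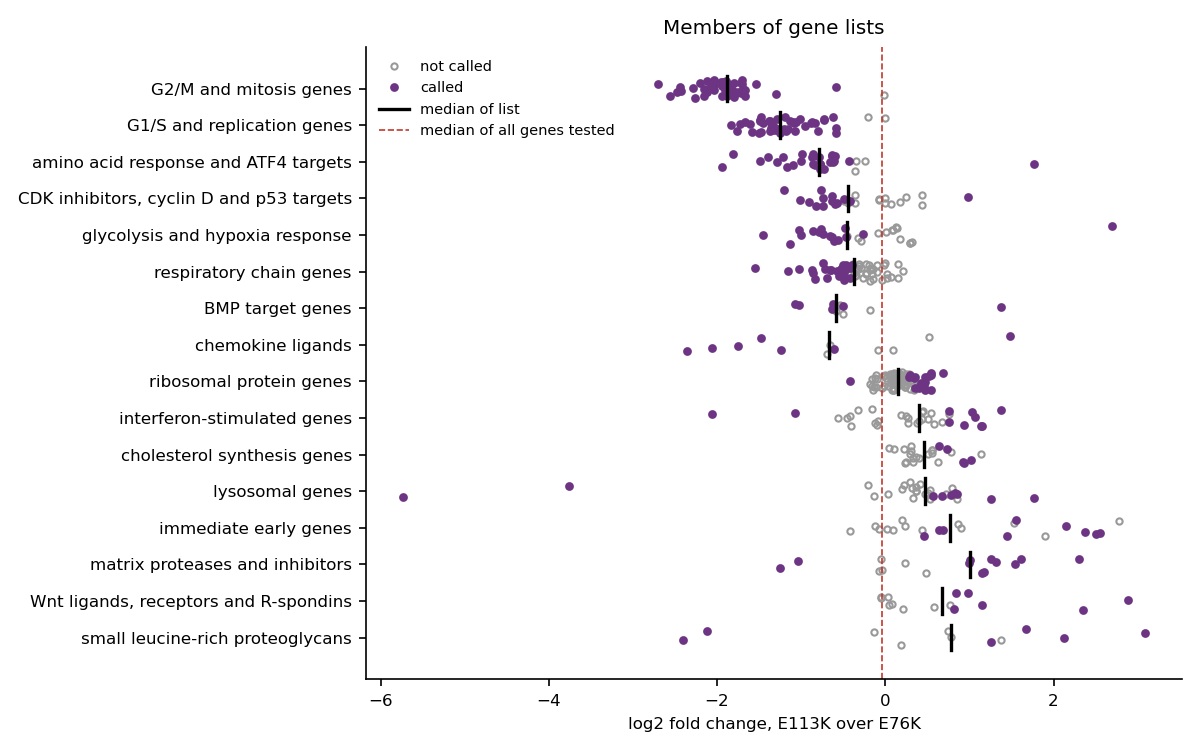
Log2 fold change, E113K over E76K, of every tested member of 16 gene lists, with filled points for genes called by limma, a bar at the list median and a dashed line at the median of all genes tested (-0.04). The G2/M, G1/S and ATF4 lists lie almost wholly below 0, and the protease, immediate early and Wnt lists lie mostly above it.

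Amino acid response genes were lower in E113K. Of 30 amino acid response and ATF4 targets, 26 fell and 1 rose, with a median of -0.78. Asns, asparagine synthetase, had 80.8, 83.8 and 82.5 TPM in E113K libraries, against 369, 377 and 236 TPM in E76K libraries and 211 ± 8.57 TPM in WT (-1.95 ± 0.22, adjusted p = 3.08e-06). Asns lies in a run of neighbouring falls on chromosome 6, given below. Trib3, a pseudokinase that restrains ATF4, averaged 22.1 ± 1.97 TPM in E113K, 80.9 ± 16.9 TPM in E76K and 85.2 ± 3.37 TPM in WT. Aldh1l2, a folate enzyme of mitochondria, fell by 1.48 ± 0.21. The riser was Vldlr, a lipoprotein receptor on the list, with 2.6, 2.41 and 2.38 TPM in E113K libraries, against 0.0123, 0.0126 and 0.0144 TPM in E76K libraries. Against WT, 19 of the 30 fell and 1 rose in E113K, where 20.2% of all genes fell. The list median there was -0.46 where that of all genes was 0.15. In E76K 1 fell and 10 rose against WT, where 24.6% of all genes rose, and the median of 0.23 was close to the 0.18 of all genes.

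Energy metabolism genes had smaller falls. Of 29 glycolysis and hypoxia response genes, 15 fell and 1 rose. Car9, the hypoxia-induced carbonic anhydrase, fell by 1.46 ± 0.33, and the riser was Eno2, an enolase best known in neurons, at 14 ± 1.19 TPM in E113K and 1.31 ± 0.241 TPM in E76K (2.70 ± 0.19, adjusted p = 8.06e-09). Of 60 nuclear-encoded respiratory chain genes, 24 fell and none rose, with a median of -0.37, but 12 fell without E76K replicate 3, 14 without E113K replicate 2, 42 after quantile normalization or without Mir6236 and 40 after the median-ratio rescaling. Ndufa4, a subunit of cytochrome oxidase, had 1002, 1004 and 1016 TPM in E113K libraries, against 2834, 2817 and 3204 TPM in E76K libraries and 1182 ± 49.7 TPM in WT (-1.55 ± 0.14, adjusted p = 2.2e-07). Cycs, cytochrome c, averaged 39.6 ± 2.1 TPM in E113K and 89.8 ± 6.4 TPM in E76K. E113K was close to WT for Ndufa4 and below it for Cycs, which held 78.7 ± 7.99 TPM there.

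Of 79 ribosomal protein genes, 17 rose and 1 fell with a median of 0.15, where 13.0% of all genes tested rose. Rpl15 rose by 0.69 ± 0.11, at 644 ± 2.53 TPM in E113K, 400 ± 25.1 TPM in E76K and 652 ± 23 TPM in WT. Against WT, 1 rose and 15 fell in E113K, a share of falls near the 20.2% of all genes. In E76K 29 fell against WT, where 8.81% of all genes fell. The number risen was 31 after quantile normalization and 25 after the median-ratio rescaling. Of 24 cholesterol synthesis genes, 5 rose and none fell, with a median of 0.46. Against WT, 14 rose in E113K and 1 in E76K, where 31.4% and 24.6% of all genes rose. With the rescaling 11 rose between the genotypes, and in a fit of the 6 libraries alone 16 did. No cholesterol synthesis genes rose without E76K replicate 1, 1 rose without E76K replicate 2, and 3 rose without E113K replicate 2 or E113K replicate 3. Nsdhl, a sterol dehydrogenase, rose by 1.02 ± 0.30 (adjusted p = 0.0155), but had an adjusted p of 0.0658 without E76K replicate 1 and 0.0643 without E76K replicate 2.

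Growth factor response genes were higher in E113K. Of 22 immediate early genes, 9 rose and none fell, with a median of 0.78. Egr1, a zinc finger factor induced within minutes of growth signals, had 101, 101 and 100.4 TPM in E113K libraries, against 9.56, 8.61 and 51.2 TPM in E76K libraries and 15.2 ± 0.876 TPM in WT (2.55 ± 0.63, adjusted p = 0.00442). Egr3 had 5.88, 7.26 and 6.3 TPM in E113K libraries, against 0.248, 0.305 and 0.381 TPM in E76K libraries (2.51 ± 0.29, adjusted p = 2.83e-06). E76K replicate 3 was nearer to E113K than its mates for Egr1 but not for Egr3. The nuclear receptor Nr4a1 rose by 2.37 ± 0.59 and Klf2, a Kruppel-like factor, by 2.15 ± 0.29. Feedback inhibitors of FGF signalling rose as well, Spry1 by 2.05 ± 0.23 and Spry2 by 1.98 ± 0.24. Over 14 FGF ligands, receptors and feedback genes, 6 rose and 1, Fgfr2, fell.

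Wnt pathway genes were higher at several levels. Of 14 ligands, receptors and R-spondins tested, 6 rose and none fell. Rspo3, an R-spondin that raises the response to Wnt, had 8.11, 6.67 and 6.94 TPM in E113K libraries, against 0.0911, 0.14 and 0.107 TPM in E76K libraries and 0.175 ± 0.0856 TPM in WT (2.88 ± 0.15, adjusted p = 8.52e-11). The receptor gene Fzd9 had 5.05, 4.46 and 3.27 TPM in E113K libraries, against 0, 0 and 0.0618 TPM in E76K libraries. Both were near 0 in E76K. Of 7 feedback targets and antagonists, 4 rose and 1 fell. The secreted antagonist Dkk2 had 15.8, 15.4 and 14.8 TPM in E113K libraries, against 0.255, 0.233 and 0.3 TPM in E76K libraries and 0.0433 ± 0.0381 TPM in WT (3.69 ± 0.14, adjusted p = 1.33e-12). Sfrp1, another secreted antagonist, rose by 2.68 ± 0.18, so agonists and antagonists were higher together, and Apcdd1, an inhibitor at the membrane, fell by 1.66 ± 0.13.

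Matrix proteases and collagens rose at shares above the 13.0% of all genes tested, and fell at shares below the 20.8%. Of 16 matrix proteases and inhibitors, 9 rose and 2 fell. Adamts1, a protease of aggregating proteoglycans, had 816, 883 and 911 TPM in E113K libraries, against 128, 137 and 308 TPM in E76K libraries and 59.5 ± 4.84 TPM in WT (2.30 ± 0.31, adjusted p = 1.87e-05). Mmp16 and Adamts2 rose by 1.61 ± 0.25 and 1.54 ± 0.16, and Mmp3, stromelysin, fell by 1.25 ± 0.24. Of 18 collagens 6 rose and 3 fell. Col3a1, a fibril collagen of soft tissue, had 1284, 1330 and 1357 TPM in E113K libraries, against 309, 303 and 578 TPM in E76K libraries (1.8 ± 0.38, adjusted p = 0.00131). Col1a1, the main bone and skin collagen, averaged 1473 ± 20.7 TPM in E113K and 1677 ± 291 TPM in E76K (-0.17 ± 0.12, adjusted p = 0.307).

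Small leucine-rich proteoglycans, which coat collagen fibrils, gave 4 rises and 2 falls among 11, the falls at a share near that of all genes. Lum, lumican, had 15.8, 19.2 and 17.2 TPM in E113K libraries, against 0.321, 0.165 and 5.54 TPM in E76K libraries (3.09 ± 0.75, adjusted p = 0.00383). Dcn, decorin, rose by 2.12 ± 0.40. Prelp fell by 2.41 ± 0.11, at 24.2 ± 1.84 TPM in E113K and 133 ± 7.84 TPM in E76K, and Fmod, fibromodulin, fell by 2.12 ± 0.53, but had -0.82 and an adjusted p of 0.0777 at a pseudocount of 5. Of 27 elastic fibre and matricellular genes 6 rose and 6 fell, the falls at a share near the 20.8% of all genes. Efemp1, fibulin-3, had 7.38, 7.2 and 9.61 TPM in E113K libraries, against 164, 156 and 219.7 TPM in E76K libraries and 348 ± 7.26 TPM in WT (-4.31 ± 0.29, adjusted p = 3.15e-09). Mfap5, a microfibril protein, had 0.52, 0.628 and 0.468 TPM in E113K libraries, against 24.5, 21.7 and 36.2 TPM in E76K libraries (-4.18 ± 0.21, adjusted p = 9.16e-11). Neither gene's libraries overlapped, and both were lower in E113K than in WT, where Mfap5 held 10 ± 1.21 TPM. Cdh11, the cadherin of mesenchymal cells, rose by 3.09 ± 0.36, at 296 ± 12.7 TPM in E113K, 35.8 ± 15.9 TPM in E76K and 12.4 ± 0.15 TPM in WT.

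Genes of mesenchymal identity changed one by one. The endoglin gene Eng, a co-receptor for TGF-beta and BMP, had 18.9, 19 and 21.7 TPM in E113K libraries, against 1.53, 1.82 and 1.86 TPM in E76K libraries and 20.7 ± 1.35 TPM in WT (2.93 ± 0.15, adjusted p = 7.44e-11). Pdgfra rose by 1.21 ± 0.17, while Thy1 and Col1a2 were the 2 markers that fell, Thy1 by 0.77 ± 0.19, a call lost at a pseudocount of 0.1 (adjusted p = 0.103). Among regulators of lineage, Pparg, the fat cell regulator, rose by 0.71 ± 0.12 (83.9 ± 6.4 TPM in E113K, 50.9 ± 1.45 TPM in E76K), while the fat cell lipid carrier Fabp4 fell by 2.66 ± 0.44. Sox9, the cartilage regulator, rose by 0.57 ± 0.21 (76 ± 2.52 TPM in E113K, 51.2 ± 5.7 TPM in E76K, adjusted p = 0.0431). Sox9 lost its call without any of the 3 E113K replicates (adjusted p = 0.106, 0.0817 and 0.0927) and without E76K replicate 1 or 2 (0.149 and 0.0896). Runx2, the bone regulator, had 25.3 ± 2.11 TPM in E113K and 16.9 ± 5.82 TPM in E76K (0.59 ± 0.31, adjusted p = 0.157), and Acta2, smooth muscle actin, had 338 ± 5.77 TPM in E113K and 308 ± 35.7 TPM in E76K (0.14 ± 0.15, adjusted p = 0.508).

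Transcription factors that pattern mesenchyme gave 12 rises and 2 falls among 34. Emx2 rose by 2.22 ± 0.15 and Ebf1, an early factor of fat and stromal cells, by 1.96 ± 0.30. Foxp2 had 0.938, 1.17 and 1.1 TPM in E113K libraries, against 22.2, 23.1 and 21.2 TPM in E76K libraries and 0.0634 ± 0.0691 TPM in WT (-3.48 ± 0.12, adjusted p = 4.6e-13). Of 11 Hox genes, 6 rose and 3 fell. The 3 that fell lie in the HoxC cluster. Hoxc13 had 1.1, 1.29 and 0.796 TPM in E113K libraries, against 34, 32.9 and 26.8 TPM in E76K libraries and 0.0417 ± 0.0133 TPM in WT (-3.96 ± 0.16, adjusted p = 4.11e-12). Hoxc10 was listed at 0 in all 3 E113K libraries and at 3.11 ± 0.661 TPM in E76K, and Hoxc6 fell by 2.02 ± 0.21. Hoxa5 rose by 0.96 ± 0.18.

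BMP targets were lower in part, chemokines were mixed, and more interferon-stimulated genes rose than fell. Of 11 BMP target genes 5 fell and 1 rose, and 8 fell without E76K replicate 3. Dlx5, a bone homeobox gene, fell by 1.07 ± 0.23 and Atoh8 by 1.03 ± 0.15, while Smad9, a transducer of BMP signals, rose by 1.37 ± 0.17. Of 12 chemokine ligands 6 fell and 1 rose, while their summed level of 2725, 2846 and 2821 TPM in E113K libraries overlapped the 2731, 2481 and 3877 TPM in E76K libraries. Ccl5 had 1.53, 3.56 and 3.08 TPM in E113K libraries, against 11.4, 11 and 41.6 TPM in E76K libraries and 31.3 ± 3.14 TPM in WT (-2.36 ± 0.35, adjusted p = 5.69e-05). Cxcl10, a chemokine induced by interferon, fell by 2.06 ± 0.43. Interferon-stimulated genes summed to 8303, 8590 and 9057 TPM in E113K libraries, against 6873, 6272 and 6456 TPM in E76K libraries. Of 33 tested 8 rose and 2 fell, with a median of 0.40, but 4 rose and 2 fell without E76K replicate 3. Oasl2 and Ifit3 rose by 1.38 ± 0.39 and 1.13 ± 0.34, with adjusted p of 0.0571 and 0.0681 without that library, and Ifit3 had 0.0565 without E113K replicate 3. Of 29 lysosomal genes 7 rose and 2 fell, and the falls were Lyz2 and Gpnmb, a transmembrane glycoprotein, at 0.683 ± 0.204 TPM in E113K, 21.6 ± 0.732 TPM in E76K and 78.5 ± 6 TPM in WT.

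Of markers of unrelated tissues, none of 7 endothelial markers and 1 of 10 epithelial markers, Krt14, reached a mean of 1 TPM. Krt14 had 0, 0.105 and 0 TPM in E113K libraries, against 8.66, 7.22 and 0.475 TPM in E76K libraries, and its call was lost without any one library except E76K replicate 3. Summed levels were 1.07 to 1.4 TPM in E113K, 2.79 to 10.3 TPM in E76K and 17.2 to 19.1 TPM in WT for epithelial markers. For endothelial markers they were 0.738 to 0.871 TPM in E113K, 3.3 to 4.09 TPM in E76K and 0.486 to 0.589 TPM in WT. Epcam and Cldn4 were listed at 0 in all 6 libraries. Neural and glial markers were not low as a list, with 5 of 12 at a mean of at least 1 TPM and a sum of 157.7 to 201.4 TPM in E113K, 244 to 350.1 TPM in E76K and 103.7 to 118.2 TPM in WT. Most of that sum was Ncam1, an adhesion molecule, at 102.6 to 143.4 TPM in E113K and 205.3 to 296.4 TPM in E76K. Map2, which binds microtubules, was at 24 to 29.4 TPM in E113K and 17.9 to 24.8 TPM in E76K, and S100b, a calcium-binding protein, at 25.8 to 28.3 TPM in E113K and 9.38 to 20.4 TPM in E76K. Nes and Tubb3 were the 2 that fell, and Sox2 and Rbfox3 were listed at 0 in all 6 libraries. Of 9 skeletal muscle markers Tnnt1 and Tnnt3 reached a mean of 1 TPM, the list summed to 4.72 to 5.8 TPM in E113K and 3.93 to 9.4 TPM in E76K, and Myod1, Myog and Ckm were listed at 0 in all 6. The part of these markers in the results was not tested.

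Fold changes depended on the chromosome. The median over the tested genes was -0.29 on chromosome 10 (603 genes, 37.6% lower) and -0.29 on chromosome 15 (487 genes, 37.2% lower), against -0.04 over all genes. It was 0.23 on chromosome 16 (29.9% higher), 0.22 on chromosome 14 (36.7% higher) and 0.18 on chromosome 2 (26.0% higher). Chromosome 18 was at -0.18 (30.6% lower), about as far from 0 as chromosome 2, chromosome 6 at -0.13 and chromosome 12 at 0.145. The shifts of chromosomes 2, 10, 14, 15 and 16 had the same sign in each E113K library. Those of other chromosomes did too, among them 6, 12 and 18, so the sign does not set these apart. Set against WT, the median was -0.00 in E113K and 0.25 in E76K on chromosome 10, and -0.01 in E113K and 0.27 in E76K on chromosome 15, where the medians over all genes were 0.15 in E113K and 0.18 in E76K. On chromosome 2 it was 0.22 in E113K and -0.00 in E76K, on chromosome 16 it was 0.33 and 0.05 in the same order, and on chromosome 14 it was 0.42 and 0.24. Without chromosomes 2, 10, 14, 15 and 16, 961 genes were higher and 1799 lower of 9160 tested, and 37 of 37 G2/M and mitosis genes fell. DNA copy number was not measured, and its part in these values was not tested.

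**Figure D4:**
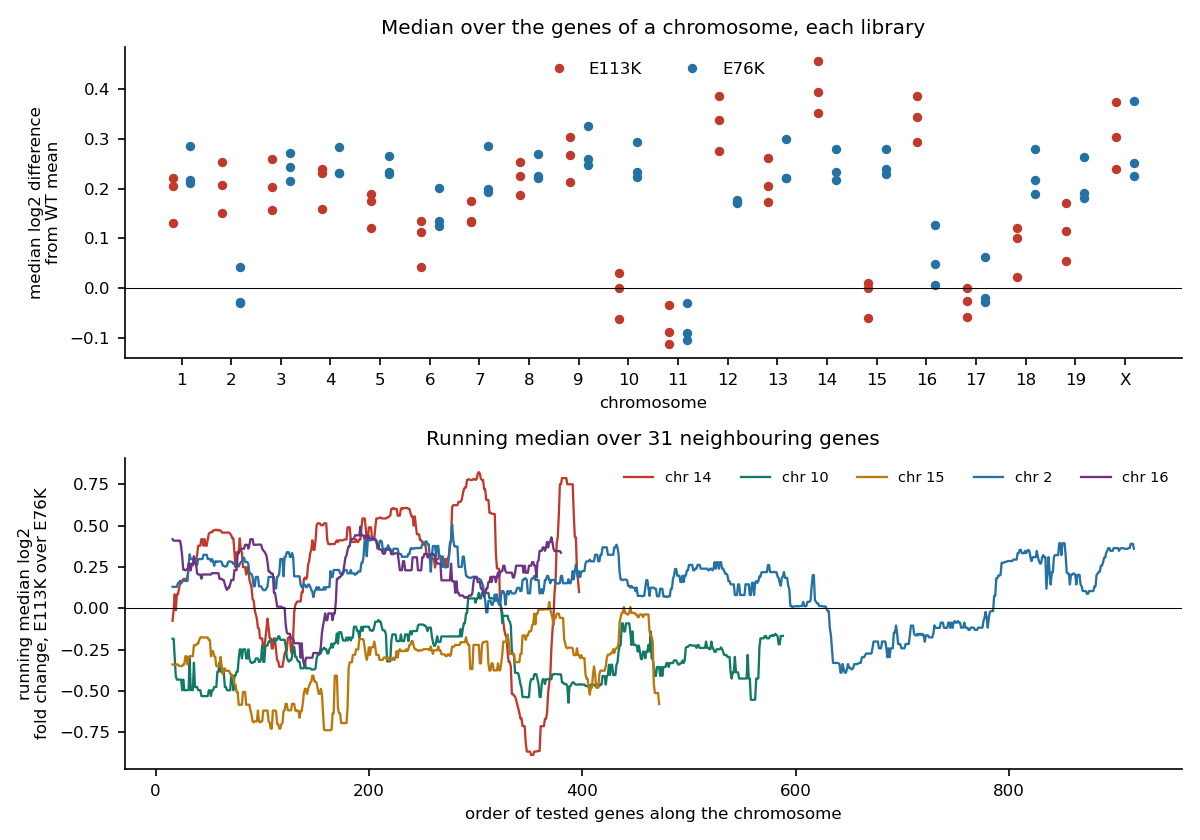
Upper panel, median log2 difference from the WT mean over the tested genes of each chromosome, 1 point per E113K or E76K library. Lower panel, running median of the log2 fold change, E113K over E76K, over 31 neighbouring tested genes along 5 chromosomes. Chromosomes 10 and 15 lie lower in E113K and chromosomes 2, 14 and 16 mostly higher, and chromosome 14 also holds a stretch well below 0.

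Called genes also stood in rows. There were 37 runs of at least 5 neighbouring tested genes called in one direction, 12 higher and 25 lower in E113K, and the longest held 13 genes. The run with the largest median, -2.79, lay on chromosome 14 from 122170994 to 123978865 and held Clybl, Zic2, Pcca, Ggact, Tmtc4 and Itgbl1. Ggact had 0.312, 1.21 and 1.31 TPM in E113K libraries, against 15.8, 14 and 22.5 TPM in E76K libraries and 13.7 ± 1.83 TPM in WT. Clybl, a mitochondrial enzyme, had 0.174, 0.184 and 0.329 TPM in E113K libraries, against 9.26, 9.92 and 16.4 TPM in E76K libraries and 17.3 ± 2.55 TPM in WT. The run median was -3.42 in E113K and -0.44 in E76K against WT, so the run lay far below WT in E113K and nearer to WT in E76K. A run on chromosome 11 (100117327 to 100397839) held Krt13, Krt15, Krt14, Eif1 and Jup with a median of -2.31, and it falls short of 5 called genes wherever the call of Krt14 is lost, as it is without any one library except E76K replicate 3. A run on the X chromosome (148180675 to 149826694) held Luzp4 and 4 predicted genes with a median of -2.33, and its near-identical copies make those values uncertain. Runs on chromosome 6 held genes named above from lists. Dlx5 and Asns lay in the run from 6558275 to 7872042 and Ndufa4 in that from 11900372 to 13677966. Foxp2 lay in the run from 13867735 to 17289130. The run medians were -1.07, -0.886 and -1.5. Against WT they were 0.203, 0.321 and 0.184 in E113K and 1.15, 1.32 and 1.4 in E76K. These genes thus stood among neighbours that changed alike, and the part of position in the list results was not tested.

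The same 2 sites were compared with glutamine, which removes the charge without reversing it, in libraries that share none with the lysine comparison. E113Q and E76Q differed in 2619 genes (21.8%), 1696 higher in E113Q (14.1%) and 923 lower (7.7%). Across 11989 genes the correlation of the lysine and glutamine differences was 0.116, given as a description. Of the genes higher in E113K, 24.7% were also higher in E113Q and 7.87% were lower, and of the genes lower in E113K, 13.7% were lower in E113Q and 14.5% were higher. The difference between the lysine and glutamine contrasts was itself called for 3602 genes (30.0%), 1143 above 0 (9.53%) and 2459 below 0 (20.5%). After the median-ratio rescaling, higher genes were 49.1% rather than 64.8% of the glutamine calls and 46.8% rather than 31.7% of the calls of the difference. Without Mir6236 these shares were 46.7% of 4138 calls and 43.6% of 5138 calls. Mir6236 held 3.32%, 4.5% and 9.31% of the TPM in E113Q libraries, against 9.85%, 9.02% and 15% in E76Q libraries. The balance of higher and lower genes with glutamine thus depended on the scaling.

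**Figure D5:**
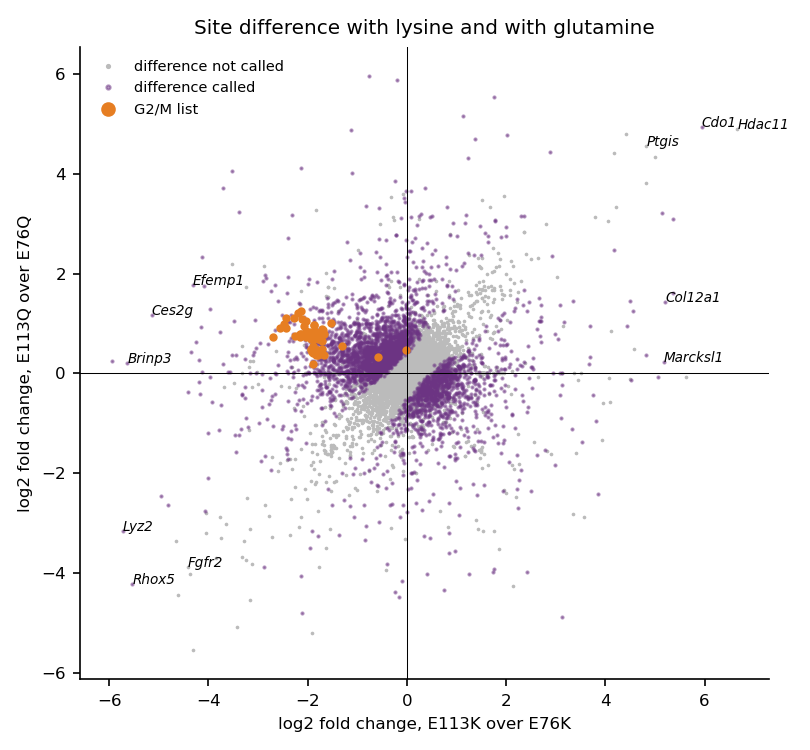
Log2 fold change of each tested gene between the sites with glutamine (E113Q over E76Q, vertical) against that with lysine (E113K over E76K, horizontal), with genes called for the difference of these values in purple and the G2/M list in orange. The G2/M genes lie left of 0 and mostly above it, while Hdac11, Cdo1 and Ptgis lie in the upper right and Rhox5, Fgfr2 and Lyz2 in the lower left.

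Some of the largest lysine differences were shared with glutamine. Hdac11 differed by 4.88 ± 0.51 with glutamine (30 TPM in E113Q and 0.0153 TPM in E76Q on average), Ptgis by 4.56 ± 0.16, Scrn1 by 4.34 ± 0.21 and Cdo1 by 4.93 ± 0.22. Fgfr2 differed by -3.88 ± 0.32, Actg2 by -4.02 ± 0.14, Tspan7 by -4.43 ± 0.24 and Slpi by -5.54 ± 0.43. For Hdac11, Ptgis, Scrn1, Fgfr2, Actg2, Tspan7 and Slpi the test of the difference between the contrasts gave adjusted p of 0.0706, 0.413, 0.108, 0.398, 0.203, 0.722 and 0.147, so no difference was called, which does not show that the contrasts are equal. Each of these 7 genes separated E113K and E113Q from E76K and E76Q by their means.

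No G2/M or G1/S gene was called lower with glutamine. The G2/M and mitosis list had a median of 0.77 with glutamine, but 3 of 50 members rose, a smaller share than the 14.1% of all genes, and none fell. Still, the difference between the contrasts was called below 0 for 49 of the 50. The summed level of the list was 3886, 3754 and 1109 TPM in E113Q libraries, against 1512, 1522 and 1485 TPM in E76Q libraries. E113Q replicate 3 lay below every E76Q library while its mates lay well above, so these groups overlapped. Of 45 G1/S and replication genes, 6 rose with glutamine, a share near that of all genes, and the difference was called below 0 for 42. Amino acid response and ATF4 targets had 13 rises and 1 fall of 30 with glutamine, against 1 rise and 26 falls with lysine, and the difference was called below 0 for 28 and above 0 for none. Respiratory chain genes, in contrast, fell in both comparisons, 24 of 60 with lysine and 22 with glutamine.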

How the data were processed

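RNA sequencing libraries of C3H/10T1/2 cells were grouped by the H2B genotype in the labels. The deposited files give TPM per gene and library, and library totals ran from 999897 to 999931. Salmon, featureCounts 1.4.4, DESeq and build mm10 are named in the submitters' processing notes, which do not say what made the TPM. Per the labels' protocols, RNeasy and NEBNext Ultra II kits were used, and strandedness is not stated. Because TPM holds no read totals, depth is unknown and no counting interval is given.

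Values were used unscaled as log2(TPM + 1), for genes averaging 1 TPM or more over the 6 libraries. limma 3.58.1 (R 4.3.3) fitted the 7 groups over all 21 libraries with a variance trend, giving 14 residual and 3.26 prior degrees of freedom. Benjamini-Hochberg adjustment ran over 11989 genes, and a gene with an adjusted p below 0.05 is called. The members and gene lists were chosen with earlier results of these data known. Genes named were the 14 largest rises and 14 largest falls among called genes that averaged 5 TPM or more with libraries that do not overlap, up to 4 called members of each list with the largest change, a fixed set (Pparg, Runx2, Acta2, Sox9, Mki67, Col1a1 and Cdkn1a), and the genes of the 3 strongest runs. Xist, Tmem47, Igsf1, Ect2, Cdc20, Ccnb2, Cdc25b, Rfc1, E2f1, Vim, Prrx1, Ncam1, Map2, S100b, Tnnt1 and Tnnt3 were chosen after their values were seen. Positions and promoters are from RefSeq on GRCm38.p6, matched by Entrez Gene identifier for 11975 genes. The procedure was tested on simulated data.

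Alternatives were other pseudocounts, filters, scalings and moderation, array weights, a replicate block, the 6 libraries alone, a fold threshold, each library left out, and leaving out Mir6236. Leaving out 5 chromosomes and genes under 300 bases was added after the data were seen.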

Additional observations from a re-analysis of the deposited data

Results flagged for a closer look

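The difference between the E113 and E76 sites was itself different with lysine and with glutamine for 3602 genes by the limma test of that difference. Values here are the lysine difference (E113K minus E76K) less the glutamine difference (E113Q minus E76Q), in log2 units, for genes among the largest changes or followed by name. The sites differed more upward with lysine for Ttyh3 (5.14), Marcksl1 (4.96), Hvcn1 (4.45), Col12a1 (3.78), Pgm5 (3.76), Efhd1 (2.27), Cd302 (1.95), Acta2 (1.72), Cdo1 (1.02) and Sox9 (1.02).

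Values lay below 0 for Ces2g (-6.32), Snora44 (-6.20), Brinp3 (-5.84), Hba-a2 (-4.77), Ccdc122 (-4.04), Lyz2 (-2.58), Tmtc4 (-2.50), Mki67 (-2.40), Ang2 (-2.17), Rhox5 (-1.31), Col1a1 (-0.70), Pparg (-0.69) and Cdkn1a (-0.52). Acta2 and Col1a1 were not called between E113K and E76K. With glutamine Acta2 fell by 1.58 ± 0.15 and Col1a1 rose by 0.52 ± 0.12. Tmtc4 averaged 79 TPM in E113Q and 416 TPM in E76Q, so it was lower at the E113 site in both pairs, and by more with lysine. Brinp3, Hvcn1 and Marcksl1 had glutamine differences of 0.20, 0.37 and 0.22, none of them called (adjusted p = 0.44, 0.672 and 0.698). Their levels differed, since Brinp3 was near 0 in both glutamine genotypes (0.225 TPM in E113Q, 0.0628 TPM in E76Q). Marcksl1 was expressed in both (21 TPM in E113Q, 16.8 TPM in E76Q).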

How the results depend on the processing

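Of the 225 genes that the naming rule picked, which leave out those chosen after their values were seen, 222 were called and 162 kept call and direction in every alternative in which they were tested, and no direction reversed among 4843 recomputed values (144 lost and 3 gained a call). Apart from the fixed set, these genes were picked as called in these data, most for large changes. A reversal was therefore unlikely in advance, and its absence says little about other genes. Counts moved by over 1.5 times as follows. Genes higher in E113K (1563) were 2718 after median-ratio rescaling, 3118 after quantile normalization, 4026 with array weights, whose estimation stopped early, 2419 in the 6 libraries alone, 480 at a log2 fold change of at least 1 and 961 without chromosomes 2, 10, 14, 15 and 16, which tests fewer genes. Genes lower (2497) were 4407 with array weights and 908 at that fold. Glutamine calls (2619) were 4354, 4386 and 7090 with the rescaling, quantile normalization and array weights, 4138 without Mir6236 and 858 at that fold. Calls of the difference of the contrasts (3602) were 5413, 5612 and 8116 with the same 3 settings and 1921 at that fold. Beyond the fold threshold, the cause was not tested. Leaving out chromosomes cut the number of genes tested and also changed their make-up. Of tested genes 26.0%, 36.7% and 29.9% were higher on chromosomes 2, 14 and 16, against 13.0% of all. On chromosomes 10 and 15 the shares were 5.64% and 6.16%. Leaving out 1 library gave 1104 to 1638 higher, 1981 to 2340 lower, 1833 to 3261 glutamine calls and 2892 to 3998 calls of the difference. Same-numbered libraries did not deviate together (correlations -0.0876, 2.96e-05 and -0.0611), so numbers were not used as pairs. The replicate block gave 1701 higher, 2531 lower, 2764 glutamine calls and 3787 calls of the difference, and no named gene changed its call. G2/M and mitosis genes kept 48 or 49 falls of 50 in each alternative that tested all 50. Depth is unknown, so how far it limits low genes cannot be given.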
